A study of Homo sapiens with 4 samples.

Results

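The 10 genes described here encode proteins that copy, package and transcribe mitochondrial DNA in human cells or look after its transcripts: SSBP1, TFAM, POLG, POLG2, TWNK, POLRMT, TFB1M, TFB2M, TEFM and LRPPRC. They were chosen by name, with earlier results of these data known, and all 10 were among the 29209 genes listed for each library. RNA came from HaCaT, a spontaneously immortalised human keratinocyte line. Cells given lentivirus to overexpress TCN1, a secreted vitamin B12-binding protein (TCN1_OE, 2 libraries), were compared with cells labelled negative control (NC, 2 libraries), to find which genes differ when TCN1 is overexpressed. The labels do not give the promoter of the vector, whether a line is 1 clone, or what the control cells carried. Nor do they say whether both libraries of 1 group had cultures of their own. The p-values below therefore reflect the spread among these 4 libraries alone, and that spread may be technical.

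Mitochondria keep a small circular genome of their own, present in many copies per cell and packed with protein into bodies called nucleoids. It is copied by a compact replisome of a helicase, a polymerase and a single-strand binding protein, and it is read by a single-subunit RNA polymerase with its own initiation and elongation factors. All of these proteins are encoded in the nucleus and imported, whereas the genome itself encodes rRNAs, tRNAs and a set of respiratory chain mRNAs. Dividing cells need these factors to keep the copy number of the genome as they grow.

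Library totals ran from 11593377 to 19973550 counts. TCN1 stood at 1.67 and 0.978 FPKM (fragments for each kilobase of the gene, relative to the total of its library) in NC and at 68.3 and 56.6 FPKM in TCN1_OE, in the direction of the labels. The 10 keratinocyte markers were all present, with a summed level of 7033 to 8148 FPKM. Markers of fibroblasts, melanocytes, immune and endothelial cells summed to between 0.0462 and 3.06 FPKM in every library. Only 4 of 7 fibroblast, 5 of 6 melanocyte, 5 of 6 immune and 2 of 4 endothelial markers were among the genes listed, and the sums cover those alone. In bulk RNA, fewer cells of a type and less RNA per cell cannot be told apart. Each of the 10 genes had between 130 and 7324 counts in every library, and 130 counts carry a counting error of 8.77%. All 10 passed the filter on low counts, and the fit covered 15113 genes.

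Promoters of genes of this kind are known for sites of the nuclear respiratory factor NRF1 and of GABP, an ETS-family factor, so the promoter windows in RefSeq (GRCh38.p14, from 250 bases before to 50 after an annotated start) were searched for both, in order to show what the 10 genes share that their choice by name did not use. The letters searched on both strands were GCGCA, any base and GCGC in a row for NRF1 and CCGGAAG for the core of ETS sites. The table held windows for 9 of the 10 genes, with 3 windows for SSBP1 and 1 for each of the others, and none for TWNK. The NRF1 letters were in windows of 4 genes, against 6.98% of the 27305 genes in the table. The ETS letters were in windows of 5 genes, against 12.2% of the genes in the table. One match of each kind per gene is shown on the strand of the gene, 5′ to 3′, with the matched letters in capitals, because these are the letters that recur among the genes.
SSBP1, ETS, chr7:141738353-141738380, plus strand: tccctgtgcgCCGGAAGtgatcccctgc
POLG2, ETS, chr17:64497096-64497123, minus strand: cagacatgcgCTTCCGGggtggggcctg
POLG2, NRF1, chr17:64497050-64497077, minus strand: acctccgttGCGCCTGCGCcgtggcctc
POLRMT, ETS, chr19:633613-633640, minus strand: tgggagtctaCTTCCGGctggggtttcc
POLRMT, NRF1, chr19:633543-633570, minus strand: gcggcgcggGCGCATGCGCaggcgcggg
TFB1M, ETS, chr6:155314552-155314579, minus strand: gcggtcatcgCTTCCGGtgggataggtc
TFB1M, NRF1, chr6:155314598-155314625, minus strand: caggacttaGCGCATGCGCtctcagcac
TEFM, ETS, chr17:30906227-30906254, minus strand: cacgcaggaaCCGGAAGtcaatggagga
TFAM, NRF1, chr10:58385338-58385365, plus strand: cgctctcccGCGCCTGCGCcaattccgc
Matches to both sets of letters occurred together in POLG2, POLRMT and TFB1M. POLRMT held another NRF1 match, which overlaps the one shown. The same ETS letters fell in all 3 windows of SSBP1. The windows of POLG, TFB2M and LRPPRC held neither set of letters, which says only that these letters are not in these windows. A match is a run of letters and was not tested for binding.

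Of the 10 genes, 1 passed the test across all genes: SSBP1 was lower in TCN1_OE (edgeR quasi-likelihood test with Benjamini-Hochberg adjustment, adjusted p under 0.05). Over all genes tested, 0.212% passed as lower and 0.285% as higher. TWNK was next, at an adjusted p of 0.0638, and the other 8 genes lay between 0.285 and 0.897. Of the 10, 8 had a log2 fold change below 0, as did 49.7% of all genes tested. Their median was -0.22, beside 0.00161 over all genes tested, where every value is TCN1_OE over NC on the log2 scale. For 6 genes (SSBP1, TWNK, TFB1M, TFB2M, TEFM and LRPPRC) both TCN1_OE libraries lay below both NC libraries in FPKM, as for 21% of all genes tested. For none of the 10 did both lie above, as for 21.7% of all. TFB2M was separated only narrowly, with TCN1_OE replicate 1 at 16.188 FPKM and NC replicate 2 at 16.197 FPKM. The 10 genes together took 0.0810% and 0.0786% of the counts in NC and 0.0693% and 0.0674% in TCN1_OE.

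**Figure D1:**
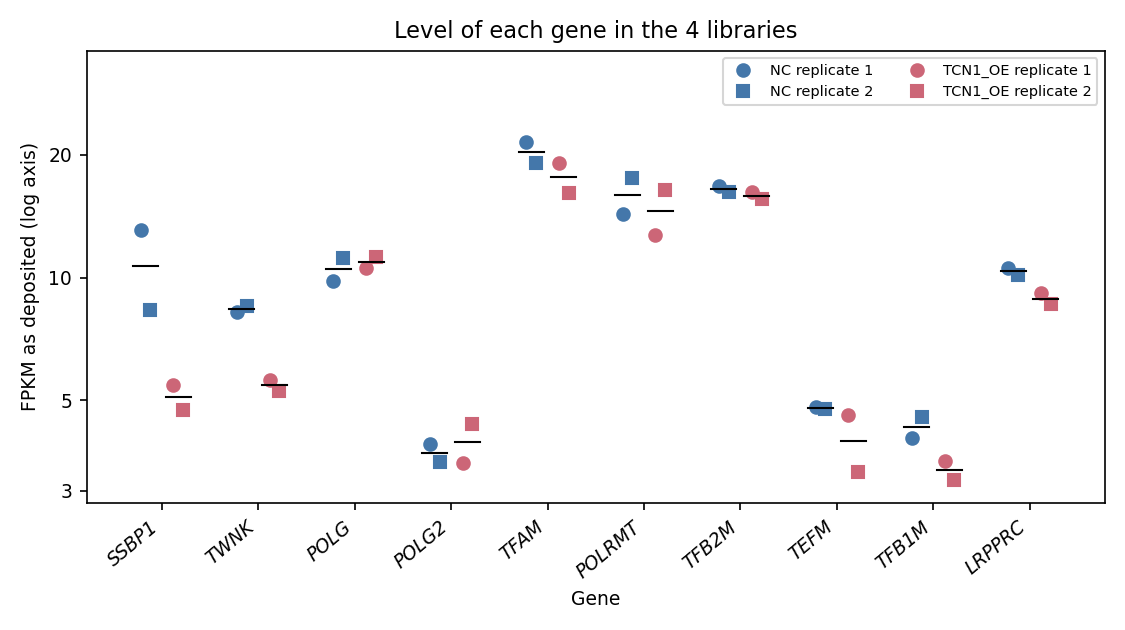
FPKM as deposited (log axis) of the 10 genes, 1 point per library, circles for replicate 1 and squares for replicate 2, blue for NC and red for TCN1_OE, with a black bar at the mean of each group. SSBP1 and TWNK show the widest gaps between the means of the groups, and the 2 NC points of SSBP1, at 13.1 and 8.30 FPKM, lie far apart.

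SSBP1 (ENSG00000106028, chromosome 7, 141738321 to 141787922 of GRCh38, plus strand) encodes the mitochondrial single-stranded DNA-binding protein, which coats the strand laid bare at the replication fork and stimulates the helicase and polymerase. NC gave 1297 and 479 counts of SSBP1 (13.1 and 8.30 FPKM), against 449 and 348 counts (5.44 and 4.74 FPKM) in TCN1_OE. The groups did not overlap, and NC replicate 1 was the high value among the 4. The mean was 10.7 ± 3.36 FPKM in NC and 5.09 ± 0.50 FPKM in TCN1_OE (SD, n = 2), and the log2 fold change was -1.08 ± 0.19 (SE, 95% interval -1.50 to -0.66), which leaves 47.3% of the control level. The edgeR adjusted p was 0.0475, close to the threshold.

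The distance between the 2 NC libraries of SSBP1 was unusual for its level. After scaling by edgeR's TMM factors (trimmed mean of M-values) they differed by 1.55-fold, or 0.63 on the log2 scale. The median difference between the NC libraries was 0.14 over the 2370 genes whose mean level lay within 0.5 log2 units of SSBP1. Only 2 of those 2370 genes, SSBP1 itself and CITED4, were at least as far apart. In TCN1_OE the 2 libraries differed by 1.13-fold, which 40.2% of the genes of like level reached. Without NC replicate 1 the log2 fold change was -0.72, and without NC replicate 2 it was -1.36. The direction thus stood with either NC library alone, while the size depended on which was used. With 1 NC library left, the spread within a group rests on the TCN1_OE libraries alone. Such a fit cannot show whether the call withstands the distance between the NC libraries. DESeq2 gave -1.08 with an adjusted p of 0.000106. SSBP1 did not pass in limma on log2(FPKM + 0.5), at an adjusted p of 0.196, nor in edgeR restricted to genes averaging 1 FPKM or more, at 0.0567.

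**Figure D2:**
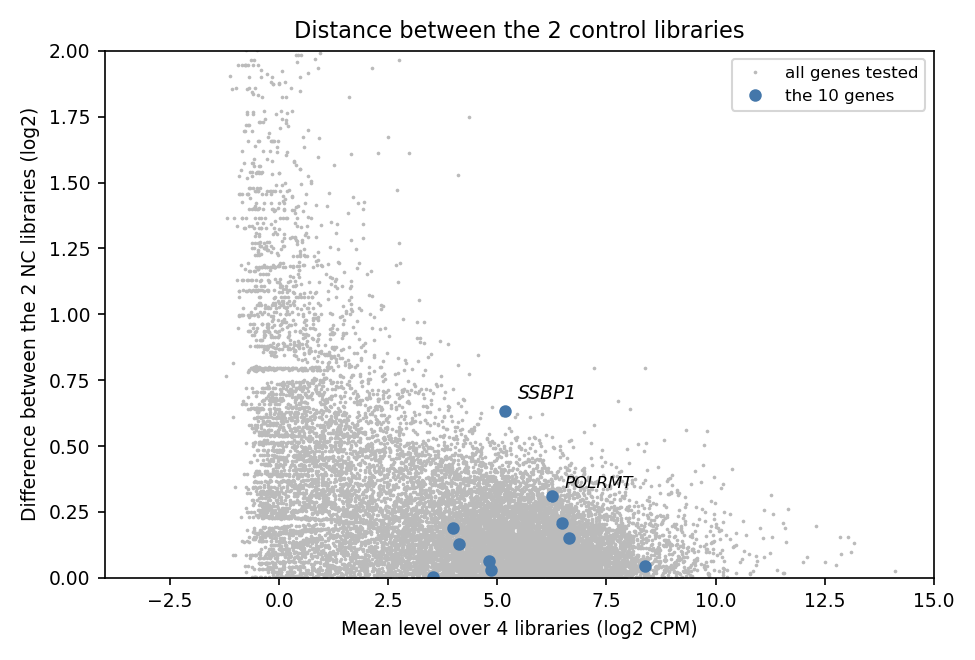
Difference between the 2 NC libraries (log2 scale, vertical) against the mean level over the 4 libraries (log2 CPM, horizontal), with 1 grey point per gene tested and the 10 genes in blue. SSBP1 sits at 0.63, on the upper edge of the cloud at its level, POLRMT is next among the 10 at 0.31, and 79 genes lie outside the axes.

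In GENCODE 29 (GRCh38), 2.69% of the exonic bases of SSBP1 lie under the exons of other genes. These were the antisense transcript WEE2-AS1, with 0, 0, 0 and 1 counts in NC replicates 1 and 2 and TCN1_OE replicates 1 and 2, and the pseudogene TAS2R6P, with 2, 0, 2 and 4 counts. The kit does not mark strand, so reads of overlapping genes cannot be told apart. For SSBP1 the length behind the deposited FPKM was 4975 bases, against 4988 exonic bases in GENCODE 29. The release of the annotation counted is not given, so the overlap in it may differ. The part of shared reads in the value of SSBP1 was not tested.

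TWNK (ENSG00000107815, chromosome 10, 100987367 to 100994401, plus strand) encodes Twinkle, the helicase that unwinds mitochondrial DNA ahead of the polymerase. NC gave 680 and 408 counts of TWNK (8.23 and 8.51 FPKM), against 384 and 322 counts (5.60 and 5.28 FPKM) in TCN1_OE. The libraries of each group lay close together, 1.05-fold apart in NC and 1.04-fold in TCN1_OE, with a wide gap between the groups. The log2 fold change was -0.62 ± 0.12 (95% interval -0.90 to -0.35), which is 64.8% of the control level. The edgeR adjusted p of 0.0638 did not pass. The gene passed in DESeq2, with an adjusted p of 0.0365, where 0.935% of the genes with an adjusted p passed as lower and 0.815% as higher. With 1 library left out, the log2 fold change of TWNK ran from -0.66 to -0.60.

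TWNK lies head to head with MRPL43, a gene of the mitochondrial ribosome on the other strand, and 149 of its exonic bases, 3.61%, fall within MRPL43. MRPL43 stood at 10.3 and 11.3 FPKM in NC and at 9.72 and 9.87 FPKM in TCN1_OE. Its log2 fold change of -0.14 ± 0.12 did not pass, with an edgeR adjusted p of 0.680, and ran from -0.22 to -0.069 with 1 library left out.

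POLG and POLG2, the catalytic and accessory subunits of the mitochondrial DNA polymerase, had estimates on the positive side of 0. POLG (chromosome 15, 89305198 to 89334861, minus strand) stood at 9.81 and 11.2 FPKM in NC and at 10.6 and 11.3 FPKM in TCN1_OE. The groups overlapped, and the log2 fold change was 0.06 ± 0.11 (95% interval -0.19 to 0.30). POLG2 (chromosome 17, 64477785 to 64497036, minus strand) stood at 3.91 and 3.53 FPKM in NC and at 3.52 and 4.37 FPKM in TCN1_OE, with a log2 fold change of 0.08 ± 0.17 (95% interval -0.30 to 0.45). These intervals leave room for changes of up to about the size given by their ends, so neither gene is shown to be equal in the 2 lines.

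Within a library, the ratio of POLG to POLG2 in FPKM was 2.51 and 3.17 in NC and 3.01 and 2.58 in TCN1_OE, so the groups overlapped. The ratio of TWNK to POLG was 0.839 and 0.761 in NC and 0.530 and 0.469 in TCN1_OE, without overlap. That of SSBP1 to POLG was 1.33 and 0.743 against 0.515 and 0.421, also without overlap. An exact two-sided permutation test with 2 libraries against 2 has few arrangements and cannot pass 0.05; both of these ratios gave the smallest p it allows. The ratio of SSBP1 to TWNK was 1.59 and 0.976 in NC and 0.972 and 0.898 in TCN1_OE, without overlap only by a hair, and NC replicate 2 lay nearer to the TCN1_OE libraries than to NC replicate 1.

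POLG shares 458 exonic bases, 7.66% of its own, with FANCI, a Fanconi anaemia DNA repair gene on the other strand. FANCI stood at 16.4 and 15.3 FPKM in NC and at 13.7 and 12.5 FPKM in TCN1_OE, which is a log2 difference of -0.28 ± 0.09 with an edgeR adjusted p of 0.213. POLG-DT, a divergent transcript whose start lies 192 bases from that of POLG, had 1 and 2 counts in NC and 3 and 6 in TCN1_OE. The length behind the deposited FPKM of POLG was 8280 bases, against 5980 exonic bases in GENCODE 29, so the overlap in the annotation counted may differ. The part of shared reads in the value of POLG was not tested.

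TFAM and the transcription machinery proper had smaller estimates of the difference than SSBP1 and TWNK. TFAM (chromosome 10, 58385022 to 58399221, plus strand) encodes the protein that packs the mitochondrial genome into nucleoids and bends its promoters for initiation. It stood at 21.5 and 19.1 FPKM in NC and at 19.1 and 16.1 FPKM in TCN1_OE. The lower NC library and the higher TCN1_OE library were level in FPKM, and the groups separated narrowly after scaling by TMM factors. The log2 fold change was -0.21 ± 0.11 (95% interval -0.46 to 0.04), and edgeR gave an adjusted p of 0.464. It was -0.33 without TCN1_OE replicate 1 and -0.11 without TCN1_OE replicate 2, and without NC replicate 1 it was -0.13.

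POLRMT (chromosome 19, 617224 to 633604, minus strand) encodes the mitochondrial RNA polymerase, which also makes the primers for replication. It stood at 14.3 and 17.5 FPKM in NC and at 12.7 and 16.4 FPKM in TCN1_OE. The replicate 1 libraries were the low ones in both groups, and the groups overlapped. The log2 fold change was -0.13 ± 0.15 (95% interval -0.46 to 0.20). Without NC replicate 2 the estimate was 0.03, and without TCN1_OE replicate 1 it was 0.05, so its sign was not settled by these libraries.

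TFB2M (chromosome 1, 246540560 to 246566324, minus strand), the initiation factor that opens the promoter together with POLRMT, differed little. It stood at 16.7 and 16.2 FPKM in NC and at 16.2 and 15.6 FPKM in TCN1_OE, with a log2 fold change of -0.06 ± 0.12 (95% interval -0.33 to 0.21). Its start lies 120 bases from that of CNST on the other strand, which stood at 5.24 and 5.09 FPKM in NC and at 4.78 and 5.47 FPKM in TCN1_OE.

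TEFM (chromosome 17, 30897336 to 30906820, minus strand), the elongation factor that keeps POLRMT on the template, stood at 4.81 and 4.77 FPKM in NC and at 4.59 and 3.33 FPKM in TCN1_OE. TCN1_OE replicate 2 was the low library, with 130 counts. The log2 fold change was -0.28 ± 0.20 (95% interval -0.72 to 0.16). It was -0.082 without TCN1_OE replicate 2 and -0.52 without TCN1_OE replicate 1. In GENCODE 29, 26.1% of the exonic bases of TEFM lie under other genes. The antisense gene AC130324.3 covers 542 bases and was not among the genes listed, so its counts are not known. ADAP2 covers 301 bases and had at most 3 counts in any library. The length behind the deposited FPKM was 2642 bases, against 3224 exonic bases in GENCODE 29. The part of shared reads in the value of TEFM was not tested.

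Of the genes that act on mitochondrial RNA after transcription, both lay lower without passing. TFB1M (chromosome 6, 155257509 to 155314493, minus strand) is related to TFB2M and is known as the methyltransferase that modifies the small-subunit rRNA. It stood at 4.04 and 4.55 FPKM in NC and at 3.55 and 3.18 FPKM in TCN1_OE, without overlap. The log2 fold change was -0.35 ± 0.16 (95% interval -0.72 to 0.01), and edgeR gave an adjusted p of 0.407. Of the exonic bases of TFB1M, 215, or 7.86%, lie within TIAM2, a gene on the other strand with 69 and 42 counts in NC and 67 and 59 in TCN1_OE. TIAM2 had a log2 fold change of 0.18 ± 0.25, with an edgeR adjusted p of 0.821. The length behind the deposited FPKM of TFB1M was 4111 bases, against 2736 exonic bases in GENCODE 29, so the overlap in the annotation counted may differ. The part of shared reads in the value of TFB1M was not tested. The FPKM ratio of TFB2M to TFB1M was 4.14 and 3.56 in NC and 4.56 and 4.90 in TCN1_OE, again without overlap.

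LRPPRC (chromosome 2, 43886508 to 43996005, minus strand) encodes the RNA-binding protein that stabilises mitochondrial mRNAs in a complex with SLIRP. With 7324 and 4072 counts in NC and 5276 and 4396 in TCN1_OE it was the most deeply counted of the 10. Its levels were 10.6 and 10.1 FPKM in NC and 9.17 and 8.59 FPKM in TCN1_OE, without overlap. The log2 fold change was -0.23 ± 0.08 (95% interval -0.41 to -0.04), and edgeR gave an adjusted p of 0.285, so the gene did not pass over all genes. Its partner SLIRP stood at 21.2 and 16.0 FPKM in NC and at 19.0 and 16.2 FPKM in TCN1_OE, with a log2 fold change of -0.09 ± 0.15. The groups of SLIRP overlapped.

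**Figure D3:**
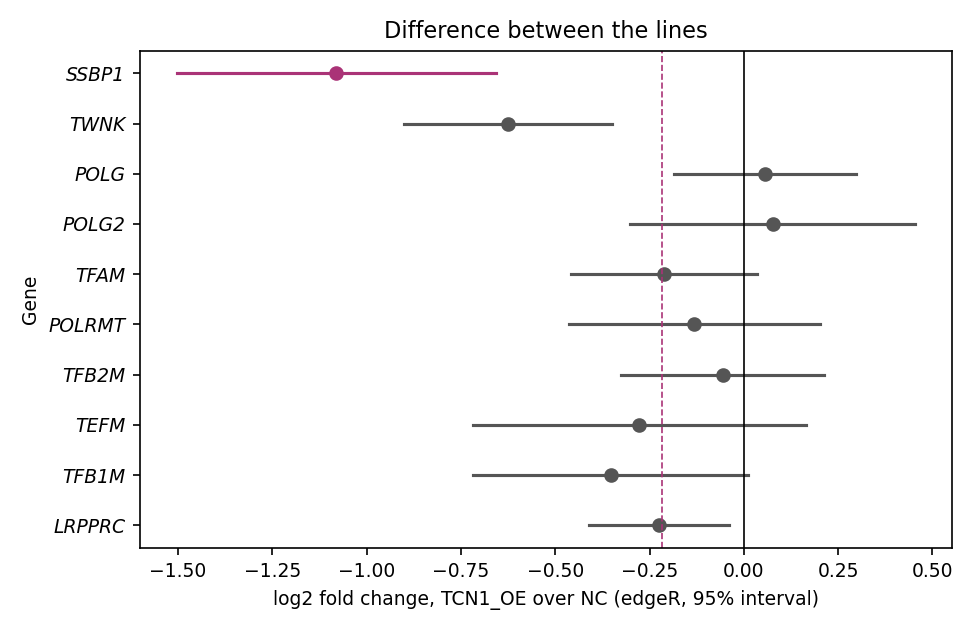
Log2 fold change of TCN1_OE over NC with its 95% interval from edgeR (horizontal) for each gene (vertical); SSBP1, which passed over all genes, is in purple, the solid line marks the median of all genes tested and the dashed line the median of the 10 genes, -0.22. The intervals of SSBP1, TWNK and LRPPRC lie wholly below 0, and those of the other 7 genes include it.

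The order of the levels among the 10 genes depended on the gene length used. The length behind the deposited FPKM was 34689 bases for LRPPRC and 4975 bases for SSBP1, whereas the principal transcripts in GENCODE 29 measure 6335 and 989 bases. For TFAM and TFB2M both lengths were nearly the same. With the deposited FPKM, TFAM stood first in NC at 20.3 ± 1.70 FPKM (SD, n = 2), then TFB2M at 16.5 ± 0.37 and POLRMT at 15.9 ± 2.28 FPKM, the latter pair within the spread of POLRMT. SSBP1, POLG and LRPPRC followed at 10.7 ± 3.36, 10.5 ± 0.97 and 10.3 ± 0.31 FPKM and did not differ beyond their spread. TWNK stood at 8.37 ± 0.20 FPKM, and TEFM, TFB1M and POLG2 came last at 4.79 ± 0.03, 4.30 ± 0.36 and 3.72 ± 0.27 FPKM.

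Over the length of the principal transcript, LRPPRC and SSBP1 led instead, at 56.7 ± 1.72 and 53.7 ± 16.9 FPKM in NC, a pair not separable given the spread of SSBP1. The whole deposited count was divided by this length. Any reads outside the principal transcript are therefore included, which may overstate genes with a far longer deposited length, such as LRPPRC and SSBP1. POLRMT, TFAM and POLG stood together at 21.0 ± 3.01, 19.8 ± 1.66 and 19.3 ± 1.78 FPKM, followed by TFB2M at 15.9 ± 0.36 FPKM. TFB1M, POLG2, TWNK and TEFM were lowest, at 12.4 ± 1.04, 10.8 ± 0.78, 9.56 ± 0.22 and 6.69 ± 0.05 FPKM. The length divides out of a comparison of 1 gene between the lines, so the fold changes above do not depend on it.

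**Figure D4:**
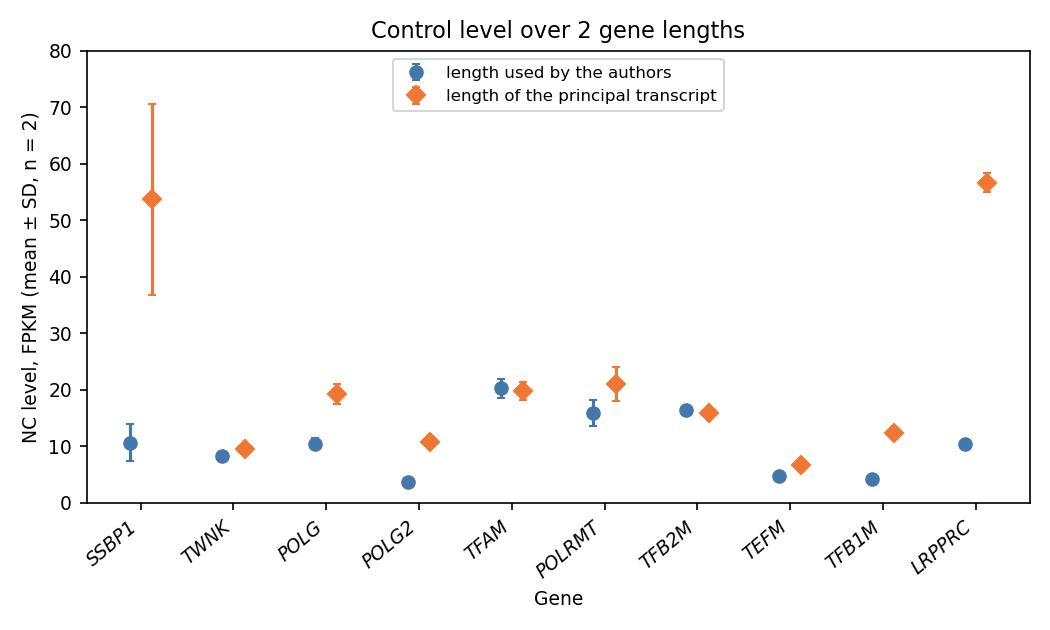
Mean NC level (FPKM, vertical, bars SD, n = 2) of the 10 genes, over the length used by the authors (blue circles) and over the principal transcript in GENCODE 29 (orange diamonds). LRPPRC and SSBP1 move from 10.3 and 10.7 to 56.7 and 53.7 FPKM, while TFAM and TFB2M hardly move. The same counts were used for both lengths.

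Other genes that serve the mitochondrial genome were taken from lists by role, and most of them had a log2 fold change below 0 as well. In each list 0 genes passed edgeR over all genes as fitted with the filter on low counts, so counts at an unadjusted p under 0.05 are given beside 6.81% of all genes tested for lower and 6% for higher. Without that filter, FEN1, DNA2, RRM2, HSPD1, ATAD3A, PNPT1 and PPRC1, all described below, passed as lower, with edgeR adjusted p from 0.000181 (PPRC1) to 0.04 (DNA2). That fit was more permissive throughout: it called 475 genes in either direction, against 75 with the filter. With 1 library left out, HSPD1 ran from -0.52 to -0.41 and PNPT1 from -0.62 to -0.50. PPRC1 ran from -0.69 to -0.44 and ATAD3A from -0.56 to -0.33. Of 14 enzymes of replication and repair, 11 were negative with a median of -0.13; 3 reached the unadjusted level, all lower, and DESeq2 called 0. The flap nuclease FEN1 went from 66.6 ± 2.28 to 52.1 ± 1.34 FPKM, or -0.36 ± 0.09 on the log2 scale. The nuclease-helicase DNA2 stood at -0.45 ± 0.13, the ligase LIG3 at -0.32 ± 0.12 and the glycosylase NTHL1 at -0.25 ± 0.18. NTHL1 was -0.076 without TCN1_OE replicate 1 and -0.45 without TCN1_OE replicate 2. FEN1, DNA2 and LIG3 also serve the nuclear genome.

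Of 17 tested genes of nucleotide supply, 12 were negative with a median of -0.12; 3 reached the unadjusted level as lower and 1 as higher. The ribonucleotide reductase subunits RRM2 and RRM1, which make deoxynucleotides for both genomes, stood at -0.42 ± 0.09 and -0.22 ± 0.08. RRM2 was called by DESeq2, with an adjusted p of 0.0148, but not by edgeR, at 0.0718. The transaminase ABAT stood at 0.35 ± 0.15, and ran from 0.21 to 0.47 with 1 library left out.

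All 10 nucleoid-associated proteins and proteases listed were negative, with a median of -0.26, and 6 reached the unadjusted level. The chaperonin HSPD1 went from 90.0 ± 3.87 to 65.8 ± 4.39 FPKM, or on the log2 scale by -0.46 ± 0.08, with an adjusted p of 0.0540 in edgeR and 0.00128 in DESeq2. The membrane ATPases ATAD3A and ATAD3B stood at -0.44 ± 0.12 and -0.43 ± 0.13, and the mitochondrial HSP70 gene HSPA9 at -0.27 ± 0.09. ATAD3A and ATAD3B are close paralogs, so reads may be split between them.

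Of 26 genes of RNA processing, stability and termination, 20 were negative with a median of -0.11, and 4 reached the unadjusted level as lower. PNPT1, the exoribonuclease of the mitochondrial degradosome, went from 12.2 ± 0.70 to 8.30 ± 0.57 FPKM. On the log2 scale this was -0.55 ± 0.11, at an adjusted p of 0.0678 in edgeR and 0.0158 in DESeq2. ELAC2, which trims the 3′ ends of tRNAs, and the RNA-binding proteins FASTKD2 and TBRG4 stood at -0.28 ± 0.09, -0.34 ± 0.12 and -0.25 ± 0.10. With 1 library left out, FASTKD2 ran from -0.49 to -0.22 and TBRG4 from -0.36 to -0.14.

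Of 12 nuclear regulators, 9 were negative with a median of -0.12, and 3 reached the unadjusted level as lower. The PGC-1-related coactivator PPRC1 went from 14.7 ± 1.16 to 10.0 ± 1.11 FPKM, or on the log2 scale by -0.56 ± 0.12, with an adjusted p of 0.0845 in edgeR and 0.0137 in DESeq2. GABPB1, a subunit of GABP, stood at -0.42 ± 0.13, MYC at -0.22 ± 0.10 and NRF1 at -0.23 ± 0.14. PPARGC1A, which encodes PGC-1alpha, had 32 to 48 counts per library, at 0.221 to 0.266 FPKM.

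The mitochondrially encoded mRNAs, the product of the machinery described here, lay on the other side. Of 12 tested, 11 were positive with a median of 0.17 and 1 was negative, MT-ND5 at -0.04 ± 0.09. Both TCN1_OE libraries lay above both NC libraries in FPKM for 9 of the 12, as for 21.7% of all genes tested. These mRNAs come from the same small genome, read by the same polymerase, so the 12 are not independent of one another. At the unadjusted level 3 were higher, while edgeR and DESeq2 called 0 after adjustment. MT-ATP6 stood at 0.24 ± 0.09, MT-CO3 at 0.18 ± 0.08, MT-CO2 at 0.23 ± 0.10 and MT-ND1 at 0.17 ± 0.08. Without TCN1_OE replicate 1, MT-ATP6 was 0.15 and MT-CO2 0.092, and without TCN1_OE replicate 2 they were 0.32 and 0.35. MT-CO2 was 0.15 without NC replicate 2. MT-ATP8, with 2 to 8 counts per library, was not tested, and the 2 mitochondrial rRNAs were not analysed here.

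The 13 mRNAs together took 5.33% and 5.13% of the counts in NC and 6.04% and 5.65% in TCN1_OE. The groups did not overlap, and the exact two-sided permutation p was the smallest that 2 against 2 libraries allow, which cannot pass 0.05. In the same libraries 9 of the 10 keratinocyte markers were positive, with a median of 0.13. Scaling to the library total ties such shares to the levels of all other genes, and the part of RNA quality or of polyA selection in them was not tested.

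**Figure D5:**
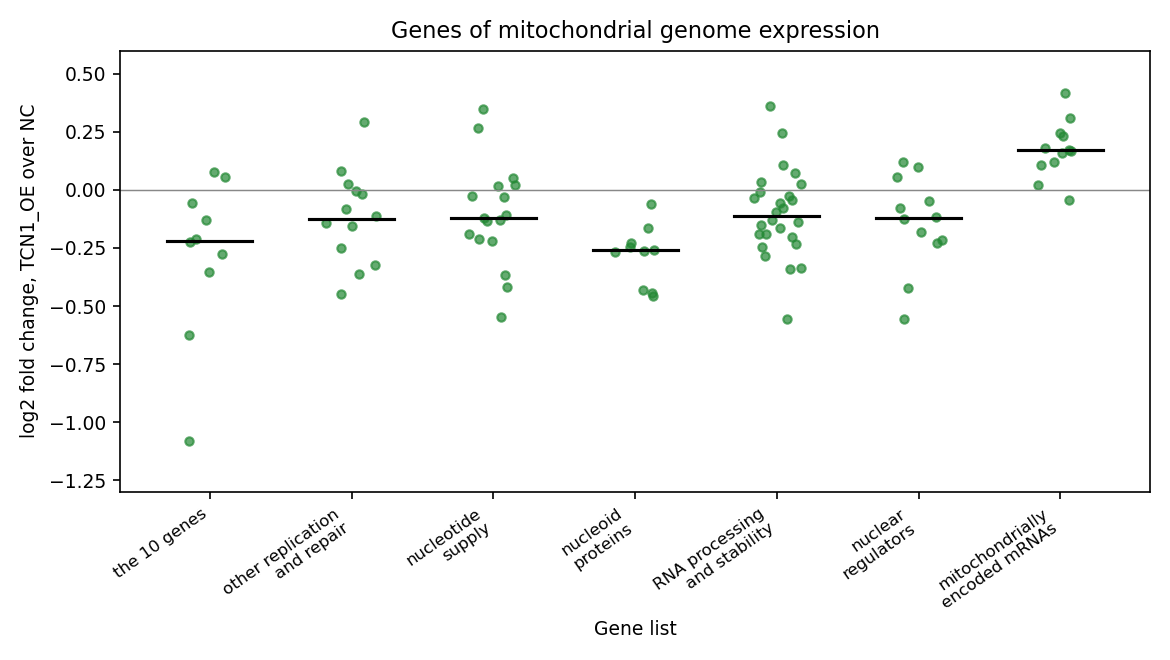
Log2 fold change of TCN1_OE over NC (vertical) for each tested gene of the 10 genes and of 6 related lists (horizontal), with a black bar at the median of each; 1 gene, APEX1 at -3.29, lies below the axis. The medians lie between -0.26 and -0.11 for the nuclear genes and at 0.17 for the mitochondrially encoded mRNAs.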

How the data were processed

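PolyA RNA was sequenced from 4 libraries, 2 NC and 2 TCN1_OE, with groups and replicate numbers from the sample titles. Per the submitters' processing notes, HISAT2 and HTSeq 0.13.5 were used on GRCh38. The release of the annotation and the strand setting: not given in the sources used here. Each deposited file has raw counts and FPKM per gene. The authors' FPKM gave a whole gene length from count, FPKM and library total in 100% of the 94850 values above 0 (tolerance 0.001 bp).

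Counts were tested with edgeR 4.0.16 (R 4.3.3; quasi-likelihood, TMM, robust, filterByExpr minimum 10, group as the only term, all 4 libraries), adjusted over 15113 genes; the SE is the log2 fold change over the square root of F. The fit was tested on simulated data. Alternatives used DESeq2 1.42.0, limma 3.58.1 on log2(FPKM + 0.5) or log2(FPKM + 0.1), other factors and filters, and each library left out. Positions, overlaps and principal transcripts (APPRIS principal, longest) are from GENCODE 29; the choice of length was added after seeing the data. The chi-square per degree of freedom between libraries was 7.55 in NC and 7.65 in TCN1_OE, above counting noise.

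The genes and lists were chosen with earlier results of these data known. Named are all 10 genes and, per list, 4 by smallest p, of which 1 is not reported here; neighbours listed in the files with overlapping exons or starts within 2 kb are named too; SLIRP, PPARGC1A, MT-ND5, MT-ATP8 and CITED4 were named after their values were seen.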

Additional observations from a re-analysis of the deposited data

How the results depend on the processing

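The number of genes called in all depended on the method: 75 as reported, 131 with upper-quartile factors, 204 with DESeq2, 1 with limma at either pseudocount, 475 without a filter on low counts, 45 with genes of at least 1 FPKM, and 221 to 305 with 1 library left out. Of the 10 genes, DESeq2 called 2 lower, as did the fit without a filter. Limma at either pseudocount and edgeR on genes of at least 1 FPKM called 0, with 3 of the 10 at an unadjusted p under 0.05 in each. SSBP1 stood at -0.97 (adjusted p 0.196) and -1.02 (0.193) in limma with pseudocounts of 0.5 and 0.1, and at -1.07 (0.0567) in edgeR on genes of at least 1 FPKM; with 1 library left out it ran from -1.36 to -0.72. The median of the 10 genes ran from -0.30 to -0.15 with 1 library left out. The difference in the share of mitochondrially encoded mRNAs was 0.611 percentage points of counts and 2.07 of FPKM. Signs turned, with no call, for POLG (-0.047 to 0.16), POLG2 (-0.10 to 0.23) and POLRMT (-0.34 to 0.049) with 1 library left out, and for CNST (-0.13 to 0.087), which stood at 0.0047 with upper-quartile factors. The cause of these shifts was not tested. A lone library left in a group is assumed to vary like the other group.

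With the replicate number as a block, edgeR called 2871 genes and 4 of the 10 (SSBP1, TWNK, TFAM and LRPPRC). Of the genes named per related list by smallest p, it called all reported here other than NTHL1, NRF1 and MT-ATP6. SLIRP, PPARGC1A, MT-ND5, MT-ATP8 and APEX1 were not part of this check. The labels do not say that the numbers pair the libraries. Deviations of same-numbered libraries correlated at 0.15 over 15113 genes. On the chi-square scale used above, same-numbered libraries of different groups lay nearer each other, at 11.2 (replicates 1) and 9.29 (replicates 2). NC replicate 1 against TCN1_OE replicate 2 gave 17.5, and NC replicate 2 against TCN1_OE replicate 1 gave 12.8. Libraries of the same group lay nearer still, at 7.55 and 7.65. The cause of this order was not tested. The share without the mitochondrial rRNAs was not run apart, since the reported share holds none.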

Other observations

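APEX1, an endonuclease of base excision repair in both genomes, was listed at 1.11, 26.3, 1.41 and 1.33 FPKM in NC replicates 1 and 2 and TCN1_OE replicates 1 and 2, or 42, 575, 44 and 37 counts. The complex III core gene UQCRC2 had 38, 421, 37 and 36 counts in the same order, and the chaperone CANX 1500, 11, 21 and 25. Among genes with at least 200 counts in some library, 23 of the 15113 tested differed by over 4-fold within NC, and 9 within TCN1_OE. UBE2A, INTS3, EPHA1, NOL8 and SPCS2P4 stand in both counts, and some genes were high in more than 1 library, such as UBE2A with 18, 210, 25 and 455 counts. None of these genes was called by edgeR, and none was among the 10 genes. In GENCODE 29, 2.86% of the exonic bases of APEX1, 2.41% of those of CANX and 0% of those of UQCRC2 lie under another gene. The length behind the deposited FPKM was 13765 bases for CANX and 4589 for UQCRC2, against 6235 and 5217 exonic bases in GENCODE 29. Overlap in the annotation used for counting is therefore not known from these shares. These genes were chosen after their values were seen.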
